A study of Mus musculus with 6 samples.

Results

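Cytosolic ribosomal protein genes encode the protein parts of the small and large ribosomal subunits. On these arrays they were read by 193 probe sets of 61 genes, out of 19937 genes that at least 1 probe set named alone. A probe set, a group of short probes summarised to 1 value, was a member when the array's annotation gave it a single gene symbol of the Rpl, Rps or Rplp series, or Rpsa, with the Rps6k kinases left out. The rule itself uses names only and no expression value. The series held 6 arrays of RNA from CD4+ T cells of C57BL/6 mice aged 6 weeks. It compared 3 wild-type (WT) arrays with 3 arrays from CBS-KO mice, numbered 1 to 3 in each group and called biological replicates in the labels. CBS is cystathionine beta-synthase, an enzyme that joins homocysteine and serine to form cystathionine. The labels used here state the strain, cell type and age for both groups and name no other allele and no treatment. They do not say how the CBS-KO allele was made, in which cells it acts, or how the T cells were purified.

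Ribosomal protein mRNAs are among the most abundant messages of lymphocytes. The small subunit decodes mRNA, the large subunit forms peptide bonds, and the acidic P-stalk proteins of the large subunit recruit translation factors. Mammalian ribosomal protein mRNAs usually begin with a terminal oligopyrimidine tract, a run of C and U that follows an initial C and places their translation under mTOR control. Each functional gene is accompanied in the genome by processed pseudogenes, near copies of its mRNA, so that several probe sets can carry 1 symbol. The deposited values give no genome position for a probe set. Which copy a given member reads is therefore uncertain, and members of 1 gene are not independent readings.

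The stretches around the annotated start of 5 genes are printed because the results turn on probe sets of these genes. They are RefSeq sequences of the mouse build GRCm38.p6, from 100 bases before the start to 25 bases after it, 5′ to 3′ on the gene's own strand. Capitals mark pyrimidine runs that open with C and span at least 8 bases, searched on the gene's strand, and the ETS-family core CGGAAG, searched on both strands. The windows are Rps13 at chr7:116334166-116334290 on the minus strand, Rps25 at chr9:44407614-44407738 on the plus strand, Rpl9 at chr5:65391407-65391531 on the minus strand, Rps12 at chr10:23787185-23787309 on the minus strand and Rps27l at chr9:66945986-66946110 on the plus strand.
Rps13: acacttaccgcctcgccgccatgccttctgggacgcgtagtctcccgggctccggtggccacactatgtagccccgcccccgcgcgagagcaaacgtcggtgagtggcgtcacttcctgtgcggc
Rps25: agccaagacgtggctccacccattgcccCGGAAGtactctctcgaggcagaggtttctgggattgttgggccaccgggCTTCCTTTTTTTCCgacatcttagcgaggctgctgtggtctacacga
Rpl9: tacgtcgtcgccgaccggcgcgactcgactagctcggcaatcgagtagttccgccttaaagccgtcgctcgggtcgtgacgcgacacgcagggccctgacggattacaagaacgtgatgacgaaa
Rps12: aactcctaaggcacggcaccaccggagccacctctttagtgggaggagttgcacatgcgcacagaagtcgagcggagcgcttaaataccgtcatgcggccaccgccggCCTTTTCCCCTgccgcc
Rps27l: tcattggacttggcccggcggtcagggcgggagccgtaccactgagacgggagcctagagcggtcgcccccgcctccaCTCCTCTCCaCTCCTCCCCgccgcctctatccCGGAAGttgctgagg

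Pyrimidine runs stand near the start in Rps25, Rps12 and Rps27l. No letters of either motif fall in the printed stretches of Rps13 and Rpl9. In Rpl9 a run lies past the printed stretch, within 50 bases after the annotated start, and in Rps13 none lies within 50 bases either side of it. RefSeq gives a second start for Rps27l, with its stretch at chr9:66946313-66946437, where no run was found within 50 bases. An annotated start can lie upstream of the start used in the cell. Over the whole family, 49 of the 61 genes matched a RefSeq window, giving 58 windows. A pyrimidine run that opens with C and spans at least 8 bases, within 50 bases either side of the start, was present in 70.7% of these windows and in 28.8% of all 32851 windows. The core CGGAAG on either strand, from 250 bases before to 50 after the start, was present in 62.1% of member windows and in 16.9% of all windows. A run can overlap the reverse-strand form of this core. The TATA-box letters TATAAA, on the gene's strand within 50 bases of the start, were present in 6.9% and 3.4%. These are matches of letters and not measured sites, and the deposited data hold no measurement of binding or of start sites. The matched sequences belong to the functional genes and say nothing of the copies.

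The arrays placed these messages near the top of the intensity range. The deposited values are linear intensities, analysed here as log2(intensity + 16). Testing was limited to probe sets whose 6-array mean exceeded a level of 6.99, the 40th percentile of all 34760. Of the 193 members, 184 passed (95.3%) and 125 lay above the 90th percentile (64.8%). In all, 45 members lay above the 99th percentile and 14 were among the 100 brightest probe sets of the array. Brightness also depends on how well each probe binds, so it is given only as a place in the range. The 9 members below the test level were the only probe sets of Rpl3l, Rpl10l and Rpl39l, and 1 probe set each of Rpl5, Rpl7a, Rpl19, Rpl21, Rpl27a and Rps12. Rpl3l, Rpl10l and Rpl39l are paralogs known from muscle or testis, and the markers of CD4+ T cells were bright on the same arrays, with Cd4 at percentile 99.3 and Cd3e at percentile 99.4. Probe sets annotated to a ribosomal protein gene together with another gene were no members. There were 207 of them, and they named 36 ribosomal protein genes, of which 17, such as Rpl3, Rpl11, Rpl13a, Rpl22l1, Rpl39 and Rps27, had no member.

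Other differences between the arrays bear on every value below. Mean levels of marker lists stood higher in each CBS-KO array than in the WT mean for neutrophils (by 3.23 to 3.64 on the log2 scale, 13 of 14 genes called higher), monocytes (1.72 to 2.35, 10 of 11) and erythroid cells (2.51 to 3.73, 10 of 10). CD4 T cell markers stood lower, by 0.35 to 1.06 on the log2 scale (4 of 10 called lower). Among cycling-cell markers 4 of 9 were called higher, with CBS-KO 2 at 0.62 and the other CBS-KO arrays at 1.78 and 2.16. B cell markers moved both ways, −0.33, 1.09 and −0.91, with 0 of 6 called. NK and CD8 markers stood at 0.62, 1.05 and 0.14, with 2 of 6 called higher. Xist was low and Y-linked genes were high in CBS-KO 1 and CBS-KO 2 only, so the groups differ in the sex of the mice as read from RNA. The Cbs probe set did not pass the test (log2 difference 0.06, limma adjusted p = 0.801). Its mean level was 7.35 in WT and 7.41 in CBS-KO, at percentile 47.9 and close to the test level of 6.99. It does not check the labels, since its WT level is low and the part of the gene it reads is not known here. In such bulk samples, fewer cells of a type and less RNA per cell cannot be told apart. The part of other cell types and of sex in the ribosomal protein values was not tested, apart from the fit with sex as a term given below.

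The first question was whether the family as a whole differed between CBS-KO and WT cells. It differed little: of the 184 tested members, 4 passed limma's moderated test at a Benjamini-Hochberg adjusted p below 0.05, which is 2.17%, against 9.57% of all 20856 tested probe sets. A probe set each of Rps13, Rps25 and Rpl9 fell in CBS-KO cells and a probe set of Rpl21 rose. Over all tested probe sets 4.47% were called lower and 5.09% higher. At an unadjusted p below 0.05, 26 members were lower and 5 higher, where the shares over all tested probe sets are 17.3% and 13.6%. The members' counts lie below both shares. The members' changes were also smaller in size, with a median absolute log2 fold change of 0.148 against 0.233 for all tested probe sets. In 175 of 184 members (95.1%) the log2 fold change was below 0.5 in size, against 76.5% of all tested probe sets.

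The intervals bound what these arrays could have missed. The 95% confidence interval lay within 1 log2 unit of no change for 168 members (91.3%), against 76.9% of all tested probe sets. It lay within 0.5 log2 units for 105 members (57.1%), against 36.3%. For the 125 members above the 90th percentile these counts were 122 and 93. In that bright class 1 member was called (0.8%), against 10.6% of all 3476 probe sets as bright. Among the 59 tested members at or below the 90th percentile 3 were called (5.08%), against 9.57% of all tested probe sets at any level.

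**Figure D1:**
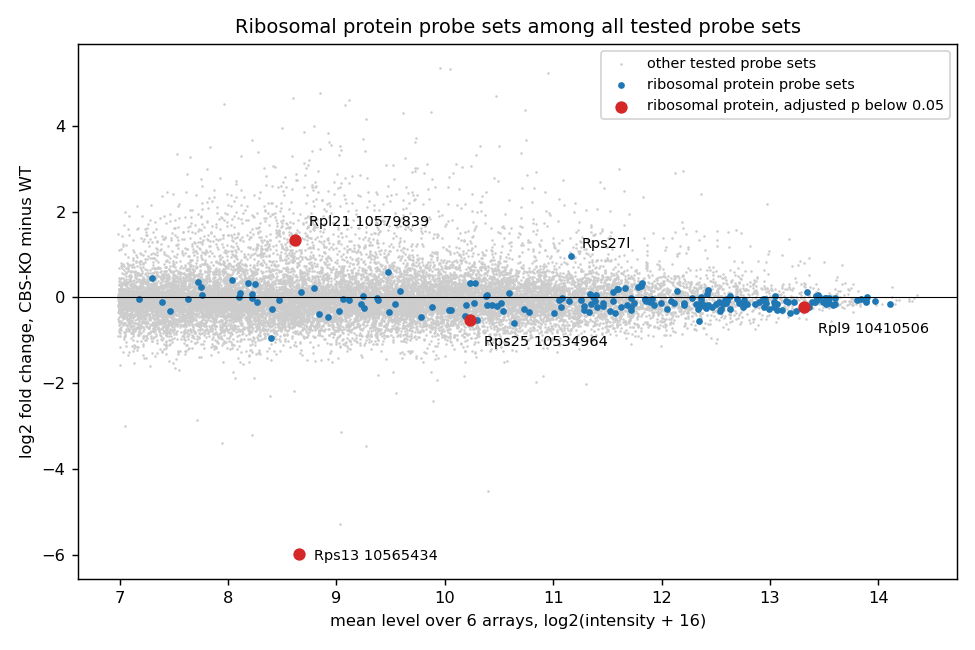
Log2 fold change of CBS-KO against WT (vertical axis) plotted against mean level over 6 arrays as log2(intensity + 16) (horizontal axis), with 1 point per tested probe set. The 184 ribosomal protein members (blue, and red where the adjusted p is below 0.05) lie close to 0 and crowd the bright end, except 1 Rps13 probe set at −5.98 and 1 Rpl21 probe set at 1.33.

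The plot of fold change against level shows the members as a narrow band slightly below 0. The median log2 fold change was −0.11 over the members and −0.05 over all tested probe sets. A negative value was found in 141 members (76.6%), against 57.2% of all tested probe sets. The groups did not overlap, meaning that every CBS-KO array lay on 1 side of every WT array, in 49 members (26.6%), against 36.7% of all tested probe sets. Of these, 41 were lower in CBS-KO, where the share over all probe sets is 21.7%, and 8 were higher, where it is 15%. The members shifted together from array to array, as the array means show, so these are not counts of independent genes.

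The array means show the size of that shared movement. The mean level of the 184 members was 11.40, 11.61 and 11.43 in WT 1, 2 and 3, and 11.35, 11.25 and 11.50 in CBS-KO 1, 2 and 3. These means include the Rps13 probe set with a log2 fold change of −5.98, which lowers the CBS-KO means. Means without it were not computed. Against the WT mean, CBS-KO 1 and 2 stood lower by −0.13 and −0.23 while CBS-KO 3 stood at 0.02, above WT 1 and WT 3. The groups therefore overlapped. The SD between array means within a group was 0.114 in WT and 0.127 in CBS-KO. The median change of −0.11 was smaller in size than either SD. That sets a median over probe sets beside the spread of single array means and is no test of the group difference. WT 2 held the highest value of the 6 arrays in 88 members and CBS-KO 2 the lowest in 91. Without WT 2 the median was −0.08, without CBS-KO 2 it was −0.07, and without CBS-KO 3 it was −0.15. The fit with sex as a term, in which CBS-KO 3 is the only CBS-KO array of the same sex as the WT arrays, gave a median of −0.02 and 53.8% negative members.

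**Figure D2:**
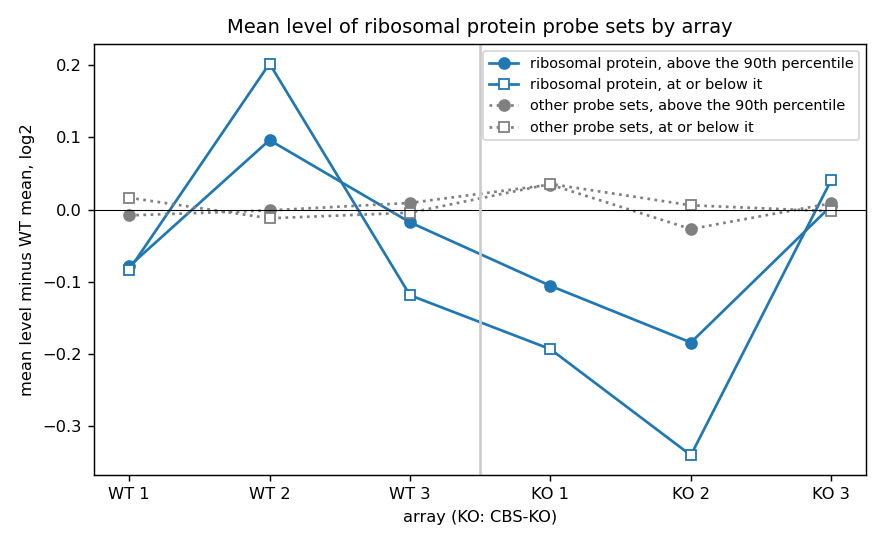
Mean level of each class of probe sets on each array, minus the mean of the 3 WT arrays, in log2 units. Blue points are ribosomal protein members and grey points all other tested probe sets, filled above and open at or below the 90th percentile of level. Both member classes are highest in WT 2 and lowest in CBS-KO 2, while the other probe sets stay within 0.04 of 0.

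The plot of array means shows that this movement was not carried by all probe sets. The mean of the 59 dimmer members moved further than that of the 125 bright ones. CBS-KO 2 stood at −0.34 against the WT mean in the dimmer class and at −0.18 in the bright class. The dimmer class holds the Rps13 probe set with a log2 fold change of −5.98, which by itself lowers the class mean in every CBS-KO array. Class means without it were not computed, so how far the other dimmer members moved is not given. Probe sets of other genes stayed between −0.03 and 0.04 in both classes.

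Single genes followed the same small scale. With each gene represented by its brightest tested member, 0 of 58 genes passed limma's test at an adjusted p below 0.05, while 8 were lower and 3 higher at an unadjusted p below 0.05, again below the shares of 17.3% and 13.6% over all tested probe sets. Their median log2 fold change was −0.08. When the probe sets of a gene were averaged first, 2 of 57 genes were called, both lower, against 18.6% of all 11962 genes tested in that way. These were Rps13, at −2.10 on the log2 scale, which carries the single probe set described next, and Rps15a, a small subunit gene read by 1 member, at −0.47 (limma adjusted p = 0.0489, against 0.0717 in the fit by probe set). Rps15a is named because it was called there, after its values were seen.

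The Rps13 probe set 10565434 held the largest decrease of the array. Rps13 encodes a protein of the small subunit's body. The level was 11.52, 12.04 and 11.38 in the WT arrays and 5.53, 5.25 and 6.22 in the CBS-KO arrays. Every CBS-KO array was thus more than 5 log2 units below every WT array. The log2 fold change was −5.98 ± 0.29 (SE, n = 3 arrays per group; limma adjusted p = 0.000693), with a 95% confidence interval of −6.68 to −5.29. All CBS-KO arrays lay below the test level of 6.99, so the probe set passed the filter through WT alone and the fitted size is not an exact fold. With the CBS-KO arrays set at that level, a choice made after seeing the data, the probe set was at least 25.3-fold lower, a log2 difference of −4.66. The next largest decrease of any tested probe set was −5.27.

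The fitted size also depends on the added constant. In linear units the mean intensity was 3256 in WT and 36.9 in CBS-KO. The WT mean lay at percentile 95.2 of all probe sets and the CBS-KO mean at percentile 13.7. With an added constant of 1 in place of 16 the log2 fold change was −6.51, and with 64 it was −5.03. The call stood in all 16 alternatives run by probe set, with adjusted p from 0.00029 to 0.00968.

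The other probe sets of Rps13 did not show this drop. Probe set 10573693 read 11.98, 12.11 and 12.10 in WT and 11.94, 11.80 and 12.02 in CBS-KO (log2 fold change −0.14 ± 0.074 SE, limma adjusted p = 0.341). Probe set 10567163 read 10.59, 10.72 and 10.42 in WT and 10.23, 10.38 and 10.55 in CBS-KO (−0.19 ± 0.13 SE, adjusted p = 0.375). In both the groups overlapped. Another probe set, 10567171, is annotated to Rps13 and to the small nucleolar RNA gene Snord14a that lies within it, so it is no member, and it gave −0.75 (adjusted p = 0.169). The annotation gives the same gene for all of them, and the values alone do not tell which sequence the first one reads.

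**Figure D3:**
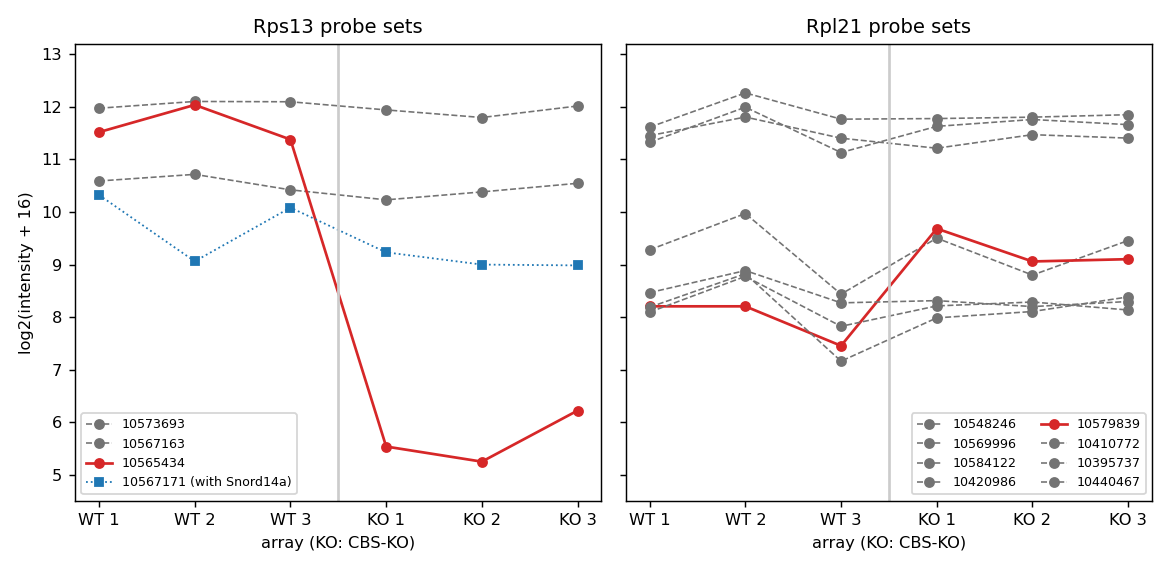
Level of each probe set of Rps13 (left) and Rpl21 (right) on each of the 6 arrays as log2(intensity + 16), with 1 line per probe set; red marks the called probe set and blue the one that also names Snord14a. In Rps13 10565434 drops from between 11.38 and 12.04 in WT to between 5.25 and 6.22 in CBS-KO. The other Rps13 probe sets fall far less, and the one that also names Snord14a was lower without being called. In Rpl21 only 10579839 has all CBS-KO arrays above all WT arrays.

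Rpl21 gave the only increase that passed the test. Rpl21 encodes a large subunit protein. Its probe set 10579839 read 8.20, 8.20 and 7.45 in WT and 9.68, 9.06 and 9.10 in CBS-KO, so the groups did not overlap. The log2 fold change was 1.33 ± 0.27 (SE, n = 3 per group; limma adjusted p = 0.0347), or 2.51-fold. The other 7 tested Rpl21 probe sets ranged from −0.27 to 0.20, all with overlapping groups and adjusted p of at least 0.348. The call was lost without any 1 of the WT arrays, without CBS-KO 1, with no filter and with sex as a term, and the adjusted p over all alternatives ranged from 0.0188 to 0.116. The 16 alternatives gave log2 fold changes of 1.08 to 1.45. Since the groups did not overlap, leaving out an array could not have changed the direction.

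A similar contrast between probe sets was seen in Rps25, a small subunit gene whose protein is needed for initiation at several internal ribosome entry sites. Probe set 10534964 read 10.58, 10.54 and 10.37 in WT and 9.98, 10.10 and 9.81 in CBS-KO. It fell by 0.53 on the log2 scale (SE 0.12, n = 3 per group; limma adjusted p = 0.0450). The other 5 Rps25 probe sets ranged from −0.44 to 0.23 with overlapping groups. The call held in 8 of 16 alternatives, was lost without any 1 array other than CBS-KO 2, and had adjusted p between 0.0131 and 0.184.

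Rpl9, a large subunit gene, was called on 1 probe set and lower on all. Probe set 10410506 read 13.39, 13.45 and 13.43 in WT and 13.23, 13.17 and 13.19 in CBS-KO. It fell by 0.23 on the log2 scale (SE 0.055, n = 3 per group; limma adjusted p = 0.0492). The other 7 Rpl9 probe sets gave −0.51 to −0.16, and in 6 of the 8 the groups did not overlap. Over all tested probe sets 21.7% were lower without overlap, and probe sets of 1 gene share the same arrays. The adjusted p of the 8 ranged from 0.0492 to 0.218. The call held in 5 of 16 alternatives, with adjusted p between 0.0309 and 0.174. It was lost when any array other than CBS-KO 2 was left out.

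The agreement between probe sets of 1 gene could be read for 38 genes, which had 164 tested members. In 20 genes all probe sets were negative, in 3 all were positive and in 15 both signs occurred. The median spread between the lowest and highest log2 fold change within a gene was 0.188. In 10 genes the spread exceeded 0.5, and in 2, Rps13 at 5.84 and Rpl21 at 1.60, it exceeded 1. Rpl36 at 0.87, Rps25 at 0.76 and Rpl19 at 0.60 followed. Genes with probe sets called in opposite directions numbered 0, where only 4 members were called at all.

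**Figure D4:**
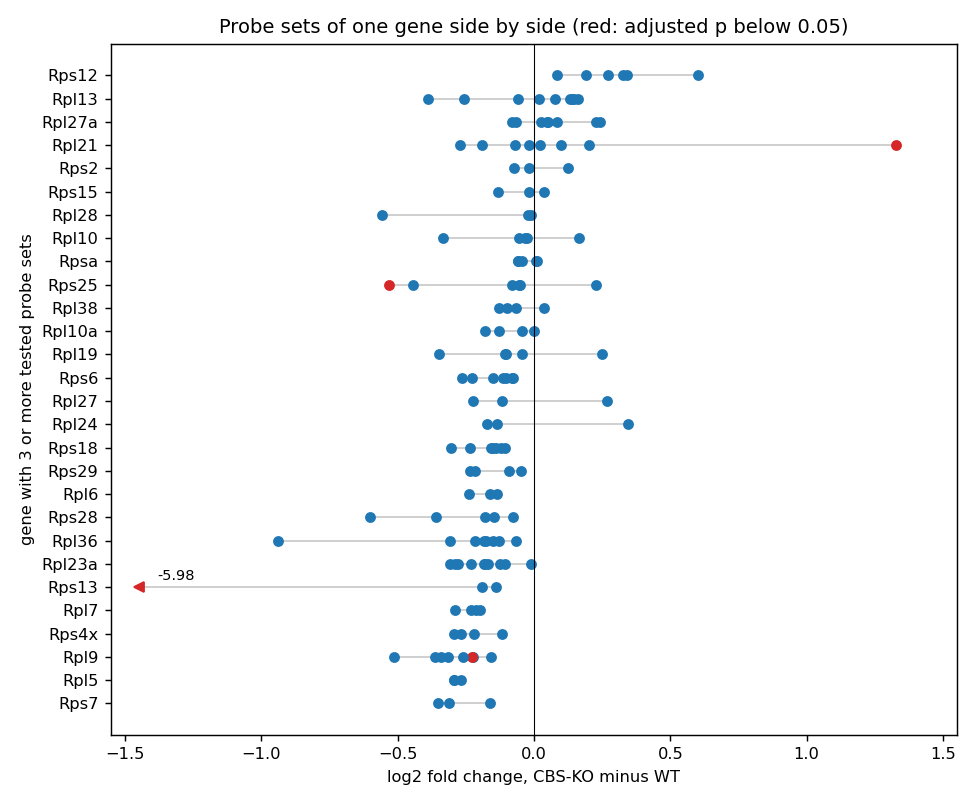
Log2 fold change of CBS-KO against WT for every tested probe set of the genes with 3 or more, with 1 row per gene ordered by median; red marks an adjusted p below 0.05. Most genes lie close to 0 and only Rps12 lies wholly above it. Many genes lie wholly below 0, Rpl9, Rpl5, Rps7, Rpl36 and Rps6 among them. The Rps13 probe set at −5.98 is drawn as an arrow at the edge.

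In the next genes of this order no single probe set was called apart from Rps25. Rpl36, a large subunit gene, had 8 negative probe sets, 7 of them between −0.31 and −0.07. Its probe set 10378783 read 8.48, 9.87 and 8.23 in WT and 7.62, 7.80 and 8.35 in CBS-KO, a log2 fold change of −0.94 ± 0.44 (SE; limma adjusted p = 0.200). WT 2 alone stood more than 1 log2 unit above the other arrays. In Rpl19, also of the large subunit, probe set 10417664 gave −0.35 and probe set 10380833 gave 0.25, each without overlap between the groups, with adjusted p of 0.0972 and 0.206.

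The large subunit members numbered 105 tested, with 1 called lower, 1 called higher and a median log2 fold change of −0.12. That is 1.9% called, against 9.57% of all tested probe sets, whose median was −0.05. Rpl5, which with Rpl11 and 5S rRNA can bind and inhibit Mdm2, had 3 tested probe sets, all lower without overlap. Its probe set 10567103 read 13.09, 13.32 and 13.22 in WT and 12.89, 12.86 and 12.99 in CBS-KO (−0.29 ± 0.080 SE, adjusted p = 0.0633), and the other Rpl5 probe sets gave −0.29 and −0.27. None passed the adjusted threshold, and 21.7% of all tested probe sets were lower without overlap. Rpl28 probe set 10518329 gave −0.56 (adjusted p = 0.181) with WT arrays at 12.62, 13.15 and 12.09, while the other Rpl28 probe sets gave −0.02 and −0.01. Rpl22, whose protein binds RNA and is required in T cell development, read 8.91, 8.98 and 9.36 in WT and 9.13, 8.83 and 9.17 in CBS-KO (−0.04, adjusted p = 0.906).

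The P-stalk genes differed little between the groups. Rplp0, Rplp1 and Rplp2 had 5 tested probe sets, none called, with log2 fold changes from −0.16 to 0.005. All 5 intervals lay within 0.5 log2 units of no change. Over all tested probe sets 9.57% were called, and 36.3% had intervals within 0.5 log2 units. Rplp0 probe set 10436694 read 13.51, 13.63 and 13.65 in WT and 13.44, 13.36 and 13.50 in CBS-KO. Rplp0 is widely used as a reference gene, and here its groups did not overlap on that probe set (−0.16 ± 0.066 SE, adjusted p = 0.156) while they overlapped on the other (−0.11).

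The small subunit members numbered 69 tested, with 2 called lower and a median of −0.12. That is 2.9% called, against 9.57% of all tested probe sets, whose median was −0.05. Rps6, the subunit protein phosphorylated by S6 kinases downstream of mTOR, had 7 probe sets, all negative, from −0.27 to −0.08. In 3 of them the groups did not overlap, where 21.7% of all tested probe sets were lower without overlap. None of the Rps6 probe sets was called. Rps19, the gene most often mutated in Diamond-Blackfan anaemia, read 12.20, 12.34 and 12.62 in WT and 12.18, 12.24 and 12.30 in CBS-KO (−0.15, adjusted p = 0.443). Rpsa, which is both a ribosomal protein and a laminin receptor, had 5 probe sets between −0.06 and 0.01. Rps7 probe set 10607391 came close to the threshold, at 13.29, 13.42 and 13.36 in WT and 13.00, 12.86 and 13.16 in CBS-KO (−0.35 ± 0.090 SE, adjusted p = 0.0559). Rps28 probe set 10524415 gave −0.60 (adjusted p = 0.124), and the other 4 Rps28 probe sets lay between −0.36 and −0.08.

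Rps12 differed in sign from most of the subunit. Its 6 tested probe sets were all positive, from 0.09 to 0.60, and none was called. Probe set 10606575 read 9.07, 9.36 and 9.09 in WT and 9.74, 9.23 and 10.35 in CBS-KO (0.60 ± 0.28 SE, adjusted p = 0.198). CBS-KO 2 lay within the WT range there. The log2 fold change was 0.87 without CBS-KO 2 (adjusted p = 0.0274) and 0.31 without CBS-KO 3 (adjusted p = 0.373). In the fit with the sex term it was 1.18, a difference that rests on CBS-KO 3 alone against the WT arrays. Apart from that fit and the one without CBS-KO 2, the probe set was not called in the other 14 of 16 alternatives.

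The paralogs, copies with their own genes that can replace or accompany the main form, leaned the other way from the family. They had 5 tested members, of which 4 were positive, 2 of these from Rps4l. Their median was 0.42 and 0 were called, against 9.57% of all tested probe sets. In 3 the groups did not overlap, all higher in CBS-KO. Over all tested probe sets 36.7% did not overlap, and 15% were higher without overlap. At an unadjusted p below 0.05, 3 paralog members were higher and 0 lower, beside 13.6% higher and 17.3% lower over all tested probe sets. A positive sign was not particular to the paralogs: all 6 tested probe sets of Rps12 and all 2 of Rpl7a were positive. Rps27l, the paralog of Rps27 and a known p53 target, read 10.66, 10.61 and 10.76 in WT and 11.88, 10.89 and 12.19 in CBS-KO (0.97 ± 0.31 SE, adjusted p = 0.0919). CBS-KO 2 was again the nearest to WT. The log2 fold change was 1.36 without CBS-KO 2 (adjusted p = 0.00238), 0.71 without CBS-KO 3 (adjusted p = 0.169) and 0.86 without CBS-KO 1 (adjusted p = 0.253). In the fit with the sex term it was 1.51, a difference that rests on CBS-KO 3 alone against the WT arrays. Apart from that fit, Rps27l was called only without CBS-KO 2 among the 16 alternatives. The order of the CBS-KO arrays in Rps27l and in Rps12 probe set 10606575, with CBS-KO 2 lowest and CBS-KO 3 highest, was also their order in the cycling-cell and the erythroid marker means. Whether either marker difference has a part in these values was not tested.

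Rpl7l1, related to Rpl7 and known from assembly of the large subunit, read 11.62, 11.69 and 11.65 in WT and 12.04, 11.74 and 12.18 in CBS-KO (0.33 ± 0.13 SE, adjusted p = 0.127). Its partner Rpl7 had 4 negative probe sets, from −0.29 to −0.20. Rps4l, related to the X-linked Rps4x, had 2 positive probe sets at 0.42 and 0.45 (adjusted p = 0.111 and 0.246), where the 4 probe sets of Rps4x gave −0.29 to −0.12. The differences between paralog and partner were not tested. Rpl32l, the remaining paralog member by its symbol, gave −0.09.

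**Figure D5:**
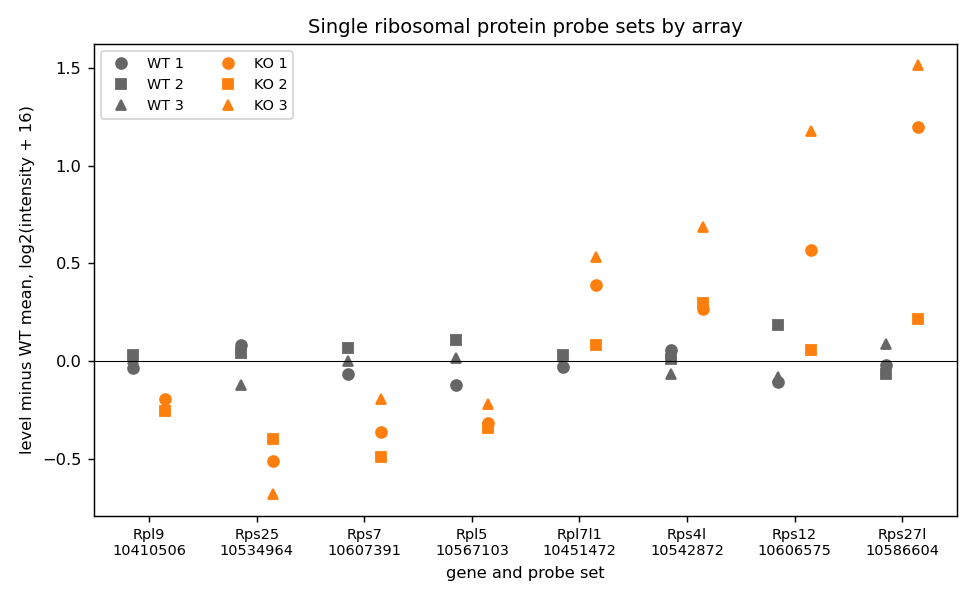
Level of 8 single probe sets on each array, minus the mean of the 3 WT arrays, as log2(intensity + 16); grey marks WT, orange CBS-KO, and the marker shape the replicate number. Shown is each gene's tested probe set of smallest p, and for Rps12 that of largest change, so the separation follows in part from this choice. The Rpl9, Rps25, Rps7 and Rpl5 probe sets shown lie below the WT arrays on every CBS-KO array. Of each gene's tested probe sets, 1 of 6 in Rps25 and 1 of 3 in Rps7 was lower without overlap. The share over all tested probe sets is 21.7%. In Rpl7l1, Rps12 and Rps27l CBS-KO 2 (orange square) lies lowest of the CBS-KO arrays.

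The 3 X-linked members Rpl10, Rpl36a and Rps4x are given apart because the groups differ in sex. Their 11 tested probe sets had 0 called, against 9.57% of all tested probe sets, and a median of −0.07. The part of sex in these values was not tested. Rpl10 probe sets ranged from −0.33 to 0.17.

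Other genes of the translation machinery were set beside the family, each by its brightest probe set. Over all tested probe sets, not reduced to 1 per gene, 9.57% were called, 57.2% were negative and the median was −0.05. Fau, which encodes a ubiquitin-like protein fused to a small subunit protein, was the 1 tested gene of the other cytosolic ribosomal proteins and gave −0.06. Among elongation factors and other factors whose mRNAs belong to the same oligopyrimidine class 0 of 14 genes were called, with a median of −0.02. Among initiation factors 0 of 24 were called, with 20 positive and a median of 0.27. Of 57 genes for rRNA transcription and ribosome assembly 52 were positive, with a median of 0.33, and 1 was called. This was Polr1d, a subunit of RNA polymerases I and III, at 9.53, 9.65 and 9.72 in WT and 10.40, 10.02 and 10.52 in CBS-KO (0.68 ± 0.16 SE, adjusted p = 0.0446). Of 77 mitochondrial ribosomal protein genes 67 were positive, with a median of 0.23 and 0 called. The median SD between CBS-KO arrays was 0.40 there, 0.39 in the genes for rRNA transcription and ribosome assembly, and 0.119 in the cytosolic members. Of 41 proteasome genes 1 was called, Psme2, an interferon-inducible activator subunit (−0.43, adjusted p = 0.0228), with a median of 0.24.

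Among 12 regulators of ribosomal protein synthesis 2 were called (16.7%, against 9.57% of all tested probe sets). Eif4ebp1, the mTOR target that binds and blocks eIF4E, read 9.46, 9.60 and 9.42 in WT and 11.17, 10.63 and 11.37 in CBS-KO, and rose by 1.56 on the log2 scale (SE 0.20, limma adjusted p = 0.0127). Mdm2, the ubiquitin ligase of p53, read 11.13, 10.95 and 10.99 in WT and 10.55, 10.61 and 10.53 in CBS-KO, and fell by 0.47 (SE 0.097, adjusted p = 0.0365). The remaining 10, mTOR and its partners among them, were not called, and the median of the 12 was 0.06. Whether the marker differences between the groups have a part in these lists was not tested.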

How the data were processed

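RNA of CD4+ T cells was read on 6 Affymetrix arrays, 3 WT and 3 CBS-KO, after biotin labelling per the labels' protocols. The authors deposited linear intensity values of 34760 probe sets, with array medians of 149 to 171. The sources used here do not say how background, probe summary and scaling were handled. Values were analysed as log2(intensity + 16), with no further normalization. Probe sets with a mean above the 40th percentile were tested with limma 3.58.1 in R 4.3.3 (lmFit, eBayes with a trend), with Benjamini-Hochberg adjustment over 20856 probe sets. Genes came from the platform annotation, which can be dated. Probe sets naming 1 gene numbered 21640, several genes 1321 and no gene 11799. Genes named in the text are called members, the 5 largest changes each way, all of Rps13, paralogs with partners, 7 subunit genes (Rps6, Rps19, Rpl5, Rpl11, Rplp0, Rpl13a and Rpsa, of which Rpl11 and Rpl13a had no member), the 5 genes with the widest spread between probe sets and the called genes of each pathway list. Other genes were named after their values were seen: Rps7, for its adjusted p near the threshold, Rps12 and Rpl7a, for their single sign, Rps15a, and the X-linked Rpl36a. The members and lists were chosen with earlier results of these data known. The procedure was tested on simulated data. Alternatives were quantile normalization, a common median, other filters and constants, eBayes without a trend or robust, replicate number or sex as a term, gene means and leaving out each array. The number of arrays limits the precision.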

Additional observations from a re-analysis of the deposited data

How the results depend on the processing

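The median log2 fold change of the ribosomal protein members stayed between −0.15 and −0.02 in every alternative run. It moved from the reported −0.11 by less than the SD between array means (0.120), but in size it exceeded that SD without CBS-KO 3 (−0.15), without WT 1 (−0.14) and with quantile normalization (−0.14). The count of called members, 4 in the analysis reported, was 1 with no filter, 2 with the replicate block, 7 with sex as a term (3 lower, 4 higher) and 2 with probe sets averaged by gene, and it ranged from 1 to 13 when 1 array was left out. It was 1 without WT 1, WT 2, WT 3 or CBS-KO 1 and 13 without CBS-KO 2. The count over all tested probe sets, 1995, was 1126 with no filter and 4976 with sex as a term, and ranged from 72 without WT 2 to 6433 without CBS-KO 2. The cause was not tested, except that the analysis with no filter adjusts over more probe sets. No direction reversed among the single probe sets followed, but where the groups do not overlap leaving out an array could not reverse it. Arrays with the same replicate number correlated at 0.06, 0.16 and 0.11 in their deviations from the group means, each best with its own number, a hint from the data and not from the design; the labels do not pair them. The count of 15 genes whose probe sets had both signs stayed within 1.5 times under quantile normalization and with no filter.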

Other observations

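Probe sets annotated to a ribosomal protein gene together with other genes, outside the comparison above, gave a similar picture. Of 187 tested, 5 were called (2.67%, against 9.57% of all tested probe sets), 2 lower and 3 higher, with a median log2 fold change of −0.10. One stood apart. Probe set 10476441, annotated to Rpl29 with 5 predicted or unnamed genes (Gm15212, Gm8580, Gm10548, Gm13213 and 4931440P22Rik), read 8.18, 8.73 and 8.11 in WT and 13.54, 13.53 and 13.63 in CBS-KO, and rose by 5.23 on the log2 scale (SE 0.17, limma adjusted p = 0.000199). The other 27 tested probe sets that name Rpl29 with another gene ranged from −0.62 to 0.50. Of these, 10533023 rose by 0.42 and 10472197 fell by 0.35. Which transcripts these probe sets read is not known here.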
